A study of Mus musculus with 8 samples.

Results

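The insulin-like growth factor (IGF) system was followed in the hippocampus through 10 genes, chosen by name for their place in the system, by a rule that uses no measured value but was written with earlier results of these data known: the ligands Igf1 and Igf2, the receptors Igf1r and Igf2r, and the binding proteins Igfbp2, Igfbp3, Igfbp4, Igfbp5, Igfbp6 and Igfbp7. They are 10 of the 25834 genes in the count table, and all 10 passed the filter on low counts. RNA was sequenced from hippocampi of male mice, with 4 control libraries and 4 SAP97-cKO libraries, 1 library per mouse. SAP97-cKO mice were Nestin-cre+/-; SAP97fl/fl with Cre driven by the Nestin promoter, which is active in the neural lineage. Controls were littermates that carried Cre alone, the floxed alleles alone or neither, but which library came from which genotype, and the age of the mice whose RNA was sequenced, were not stated in the sources read here.

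IGF1 and IGF2 are secreted peptides that signal mainly through the tyrosine kinase receptor IGF1R and from there through the PI3K-Akt-mTOR route to growth, survival and protein synthesis. IGF2R carries no kinase and takes IGF2 to the lysosome, while the binding proteins hold the ligands in the extracellular space and set how much reaches a receptor. In the adult brain Igf2 is known as a product of choroid plexus, meninges and vessels more than of neurons, and hippocampal IGF2 is known for a role in memory consolidation.

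The data are read counts per gene, and each library held 37388177 to 37426572 of them. Normalized counts below are counts scaled by edgeR's trimmed mean of M-values (TMM) to the mean library. A change was called at a false discovery rate (FDR, Benjamini-Hochberg over all 16251 genes tested by edgeR's quasi-likelihood test) under 0.25, the threshold of the study. Dlg1, which encodes SAP97, had 4128, 4550, 3983 and 4691 normalized counts in the controls and 2353, 3065, 2144 and 2009 in the SAP97-cKO libraries. Every SAP97-cKO library lay below every control, and Dlg1 fell by 0.86 on the log2 scale (SE 0.12, edgeR FDR = 0.143). Without control 2, SAP97-cKO 3 or SAP97-cKO 4, each left out singly, 0 genes passed the threshold in edgeR, Dlg1 included. Markers of hippocampal neurons were abundant in every library (10380 to 13150 CPM summed over 12 genes, where CPM is counts scaled to a common library total), with 10 of 12 estimates above 0 and 4 of them at an unadjusted p under 0.05. Of oligodendrocyte markers 12 of 12 had estimates below 0 (8 at an unadjusted p under 0.05), and of ependymal markers 8 of 8 (5 at that level), and in both lists the summed levels of the groups overlapped. Of astrocyte markers 8 of 10 had estimates above 0 (2 at that level). Their sum was 5590 to 6392 CPM in the controls and 5870 to 7270 CPM in the SAP97-cKO libraries. The part of cell makeup in the members' values was not tested.

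No member passed the threshold. Of the 10 members, 0 were lower and 0 higher at FDR under 0.25 in edgeR, against 0.283% of all genes tested called lower and 0.0123% called higher, and limma-voom and DESeq2 also called 0. At an unadjusted p under 0.05, 1 member was lower (Igfbp7) and 0 were higher, against 7.01% and 4.73% of all genes. The groups overlapped for all 10 members, while 6.25% of all genes had groups that did not overlap. The estimated log2 fold change was below 0 for 7 members and above 0 for 3, where 52.75% of all genes tested were below 0. The median was -0.04 for the members and -0.01 for all genes tested. The 3 members with the largest estimates, all below 0, were Igf2, Igfbp2 and Igfbp7.

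**Figure D1:**
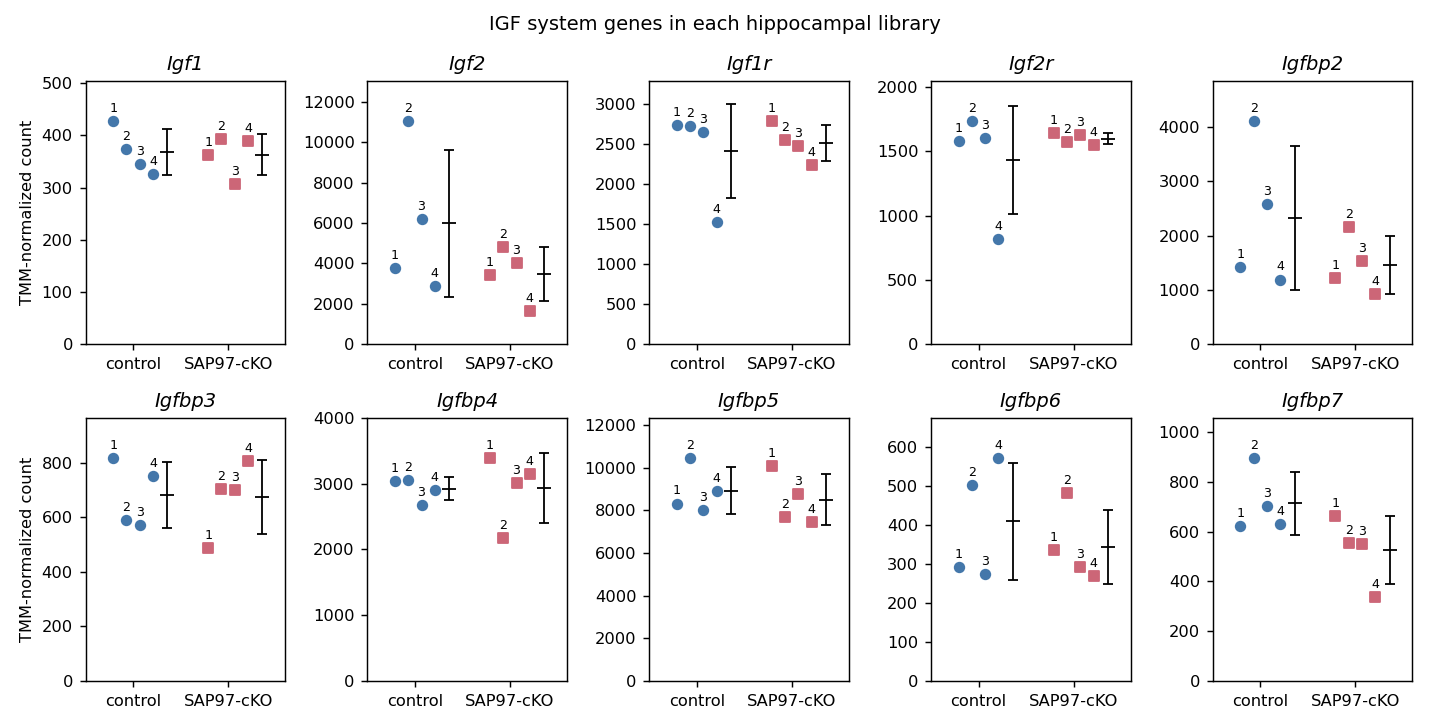
TMM-normalized count (linear axis from 0) of each of the 10 genes in each library, with control libraries as circles and SAP97-cKO libraries as squares, numbered by replicate, and mean ± SD (n = 4) beside each group. The groups overlap in every panel. Igf2 and Igfbp2 are highest in control 2 and control 3, and Igf1r and Igf2r are lowest in control 4.

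Igf2 and Igfbp2 had almost the same profile over the 8 libraries, and their upstream sequences are shown side by side as description only. Whether these sequences bear on the profile was not tested. Igf2 (ENSMUSG00000048583) lies on the minus strand of chromosome 7 at 142650766 to 142666816, and Igfbp2 (ENSMUSG00000039323) lies on the plus strand of chromosome 1 at 72824503 to 72852474, by the GENCODE M21 annotation of GRCm38. The 250 bases before a RefSeq transcription start of each gene (GRCm38.p6) follow, 5′ to 3′ on the gene's strand, with matches to 4 motifs in capitals, and neither window holds a GENCODE exon. RefSeq gives 4 starts for Igf2 and 2 for Igfbp2, and the Igf2 window shown is that of the start nearest to the 3′ end of the gene. The gene-level counts do not tell which start was used.
Igf2, chr7:142657497-142657746, minus strand: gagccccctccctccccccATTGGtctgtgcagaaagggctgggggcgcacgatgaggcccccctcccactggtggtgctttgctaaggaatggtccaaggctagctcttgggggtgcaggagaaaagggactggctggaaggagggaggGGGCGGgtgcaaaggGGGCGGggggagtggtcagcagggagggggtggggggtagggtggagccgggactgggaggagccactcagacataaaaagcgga
Igfbp2, chr1:72824230-72824479, plus strand: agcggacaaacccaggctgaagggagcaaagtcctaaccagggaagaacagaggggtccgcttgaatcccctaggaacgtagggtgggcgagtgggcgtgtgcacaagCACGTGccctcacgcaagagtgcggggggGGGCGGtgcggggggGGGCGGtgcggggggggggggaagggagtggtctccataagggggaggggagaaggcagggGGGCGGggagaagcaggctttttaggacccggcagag
The motifs searched on both strands were the GC box (GGGCGG), the CCAAT box (CCAAT), the TATA box (TATAAA) and the E-box (CACGTG). The Igf2 window held 2 GC boxes and 1 CCAAT box, and the Igfbp2 window held 3 GC boxes and 1 E-box. Among 32851 RefSeq windows of the same length, 32.7% held a GC box, 33.8% a CCAAT box, 12.4% a TATA box and 6.02% an E-box. The G and C content was 66.0% in the Igf2 window and 67.2% in the Igfbp2 window, against a median of 52.4% over all windows. These were the windows with the most matches for each gene. The second Igfbp2 window held 0 matches at 56.4% G and C, and the other Igf2 windows held 0, 0 and 1 match at 50.8%, 47.6% and 68.8%.

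Among the ligands, Igf2 was the more abundant and by far the more variable. Igf2 had 3758, 11045, 6222 and 2890 normalized counts in controls 1 to 4 and 3441, 4806, 3997 and 1667 in SAP97-cKO 1 to 4. The highest and second-highest values were both controls and the lowest was a SAP97-cKO library, but the other 5 values were interleaved. The mean was 5979 ± 3660 (SD, n = 4) in the controls and 3478 ± 1331 (SD, n = 4) in the SAP97-cKO libraries, which is 58.2% of control. The estimate was -0.78 on the log2 scale (SE 0.41, 95% interval -1.70 to 0.13, edgeR FDR = 0.474), so the interval held changes in either direction. Over the 70 assignments of 4 libraries against 4, an exact permutation test (two-sided) gave p = 0.286, and it cannot go below 0.0286. Igf2 shares exon bases with Gm49394, a protein-coding gene annotated on the same strand that is not in the count table. It also shares exon bases with its antisense transcript Igf2os, and the strand setting of the counting was not stated. The 9 to 52 reads of Igf2os per library were few beside those of Igf2.

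Igf1, the ligand that in brain is known from neurons, microglia and vessels as well as from the circulation, was scarce and even. Its normalized counts were 427, 375, 345 and 325 in the controls and 363, 393, 307 and 388 in the SAP97-cKO libraries. The groups lay over one another, with the highest value in a control and the lowest in a SAP97-cKO library. The estimate was -0.02 (SE 0.12, 95% interval -0.29 to 0.25, edgeR FDR = 0.956), and the interval bounds a change of Igf1 more tightly than that of Igf2.

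Igfbp2, the binding protein known from choroid plexus, meninges and astrocytes, had 1427, 4112, 2581 and 1193 normalized counts in the controls. In the SAP97-cKO libraries it had 1214, 2160, 1528 and 918. Controls 2 and 3 stood highest, as for Igf2, and SAP97-cKO 4 stood lowest. The mean was 2328 ± 1335 (SD, n = 4) against 1455 ± 532 (SD, n = 4), with an estimate of -0.68 (SE 0.38, 95% interval -1.52 to 0.16, edgeR FDR = 0.490). As for Igf2, the interval held changes in either direction in this fit, which did not use the replicate numbers.

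The 8 libraries stood in the same order by Igf2 and by Igfbp2, and in the same order again by the summed level of 20 choroid plexus markers, none of which is an IGF gene. The choroid plexus is the secretory epithelium of the ventricles that borders the hippocampus, and its leading markers are Ttr (transthyretin), Kl (klotho) and Clic6 (a chloride channel protein). The 20 markers summed to 1265, 7172, 4008 and 192 CPM in controls 1 to 4 and to 601, 2467, 1412 and 110 CPM in SAP97-cKO 1 to 4. The sum spanned 65.1-fold with overlapping groups (exact permutation test, two-sided, p = 0.486). All 20 markers had estimates below 0, 0 passed FDR under 0.25 and 1 was at an unadjusted p under 0.05. All 20 were detected in every library. Ttr alone ranged from 57.7 to 6208 CPM and made up most of the sum, so the order by the sum is largely the order by Ttr. Kl did not keep that order, with 888 normalized counts in control 4 and 1126 in SAP97-cKO 4.

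Igf2 and Igfbp2 varied less over the libraries than the leading choroid plexus markers. Igf2 spanned 6.62-fold and Igfbp2 4.48-fold over the 8 libraries, while Ttr spanned 107.6-fold and Kl 9.76-fold. Control 1 (1265 CPM) and SAP97-cKO 3 (1412 CPM), whose choroid plexus sums were nearest as a ratio, had 3758 and 3997 normalized counts of Igf2 and 1427 and 1528 of Igfbp2. Control 4 (192 CPM) and SAP97-cKO 4 (110 CPM), whose sums were nearest as a difference, had 2890 and 1667 of Igf2 and 1193 and 918 of Igfbp2. Of the members, Igfbp5 and Igfbp7 stood at the same rank as the choroid plexus sum in 4 of 8 libraries, and the other 6 at 0 to 2.

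Controls 2 and 3, the libraries of the highest choroid plexus sum, were left out in an alternative chosen after seeing the data. They also held the highest Igf2 and Igfbp2 values, so an upward shift of both estimates is fixed by that choice. Igf2 was then at 0.07 (SE 0.32, edgeR FDR = 0.967) and Igfbp2 at 0.15 (SE 0.27, edgeR FDR = 0.886). Without control 2 alone, Igf2 was at -0.30 (SE 0.34) and Igfbp2 at -0.25 (SE 0.31). The part of choroid plexus tissue in the difference between groups was not tested, and in bulk RNA fewer cells of a type and less RNA per cell cannot be told apart.

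**Figure D2:**
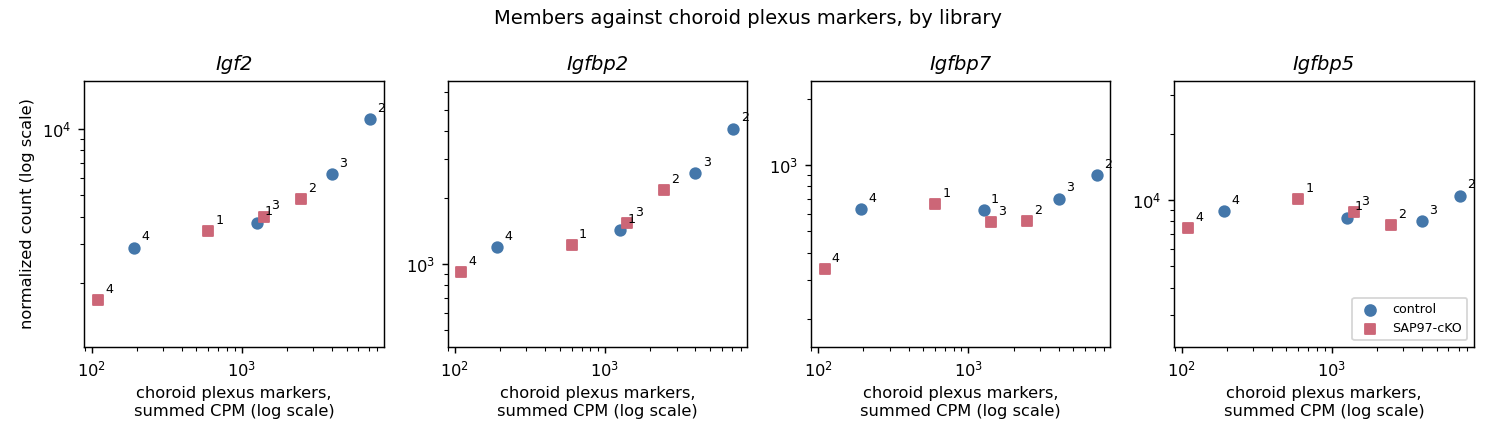
Normalized count of 4 members against the summed CPM of 20 choroid plexus markers in each library (both axes logarithmic, each y axis of equal span), with circles for controls and squares for SAP97-cKO, numbered by replicate. Igf2 and Igfbp2 rise with the sum without a break in order over the 8 libraries, and Igfbp7 and Igfbp5 do not.

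The ratio of Igf2 to Igfbp2 stayed within a narrow range, from 1.82 to 2.84 normalized counts of Igf2 per count of Igfbp2, a 1.56-fold span. In the controls it was 2.63, 2.69, 2.41 and 2.42, and in the SAP97-cKO libraries 2.84, 2.23, 2.62 and 1.82. The groups overlapped in this ratio. With each gene's log2 CPM centred on its own mean, the root mean square difference between Igf2 and Igfbp2 over the 8 libraries was 0.19, and 5 of 16250 other genes were nearer to Igf2. The 3 nearest to Igf2 outside the members were Sema3b (0.15), a secreted semaphorin, Vwa5b1 (0.17) and Col9a3 (0.17), a chain of type IX collagen, against a median of 0.77 over all genes. The 3 nearest to Igfbp2 were Nid2 (0.09), a basement membrane nidogen, Col9a3 (0.13) and Slc31a1 (0.13), a copper transporter, against a median of 0.68.

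Meningeal fibroblasts, the other tissue known for Igf2, gave a second marker sum. Their 20 markers summed to 305, 389, 239 and 308 CPM in the controls and to 144, 222, 191 and 162 CPM in the SAP97-cKO libraries, which did not overlap (exact permutation test, two-sided, p = 0.0286, the lowest that 4 against 4 allows). All 20 had estimates below 0 and 8 passed FDR under 0.25, while 0 passed without control 2, SAP97-cKO 3 or SAP97-cKO 4. The most abundant of them differed among themselves: Dcn (decorin) was at -0.01 (SE 0.42), Slc13a4 (a sulfate transporter) at -1.39 (SE 0.48) and Thbd (thrombomodulin) at -0.69 (SE 0.16), each above the edgeR FDR threshold. The list was written with earlier results of these data known, and several of its genes are among those the study itself reported as changed. Neither its count nor the separation of its sum, with its permutation p, is therefore independent evidence of a direction. Igf2 and Igfbp2 each stood at the same rank as this sum in 1 of 8 libraries. In SAP97-cKO 1 to 4 its most abundant marker, Dcn, had 610, 2482, 2300 and 2911 normalized counts. The order of libraries by this sum thus rests in part on Dcn. Per CPM of this sum, Igf2 ranged 3.0-fold and Igfbp2 2.8-fold over the 8 libraries, with overlapping groups. Per CPM of the choroid plexus sum they ranged 9.8-fold and 14.5-fold, against 6.62-fold and 4.48-fold by themselves. The meningeal sum itself spanned 2.71-fold and the choroid plexus sum 65.1-fold, so these spans largely reflect the denominators. They do not show which tissue Igf2 and Igfbp2 follow. The part of meningeal tissue in the values of Igf2, Igfbp2 or Igfbp7 was not tested.

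The intervals of the receptors held changes in either direction, and control 4 stood apart in both genes. Igf1r, the signalling receptor (chromosome 7, 67952827 to 68233668), had 2747, 2733, 2656 and 1530 normalized counts in the controls and 2790, 2559, 2484 and 2240 in the SAP97-cKO libraries. Control 4 lay far below the other 7 libraries. The estimate was 0.06 (SE 0.17, 95% interval -0.31 to 0.43, edgeR FDR = 0.901), and without control 4 it was -0.11 (SE 0.07, edgeR FDR = 0.573).

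Igf2r, the scavenger receptor for IGF2 (chromosome 17, 12682406 to 12769664), repeated this pattern. It had 1579, 1735, 1605 and 815 normalized counts in the controls, and 1642, 1573, 1626 and 1549 in the SAP97-cKO libraries. The 4 SAP97-cKO values were the tightest of any member, with a coefficient of variation of 2.76%, and control 4 again stood far below. The estimate was 0.16 (SE 0.19, 95% interval -0.26 to 0.58, edgeR FDR = 0.743), and -0.04 without control 4 (SE 0.06, edgeR FDR = 0.825). The antisense Airn, known for imprinting of Igf2r, overlaps it without sharing exon bases and had 20 to 57 reads per library.

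Control 4 held fewer reads of long transcripts. Relative to the mean of the 8 libraries, the median log2 CPM of 2710 genes with more than 8000 bases of exon was -0.22 in control 4, and that of 2508 genes under 2000 bases was 0.22. The difference between the length classes was -0.44 in control 4 and 0.00 to 0.13 in the other 7 libraries. Igf1r (16791 bases of exon) was at -0.67 and Igf2r (9308 bases) at -0.86 on that scale in control 4, and Insr, the related insulin receptor (13746 bases), was at -0.50. Igf1, with 9904 bases of exon, was at -0.16 there and so stood nearer to the class median than the receptors did. The 3 genes most like Igf2r over the 8 libraries were Dync2h1 (0.07), Tnrc6b (0.08) and Golgb1 (0.09), against a median of 0.38 over all genes. The part of transcript length in the receptor values was not tested.

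**Figure D3:**
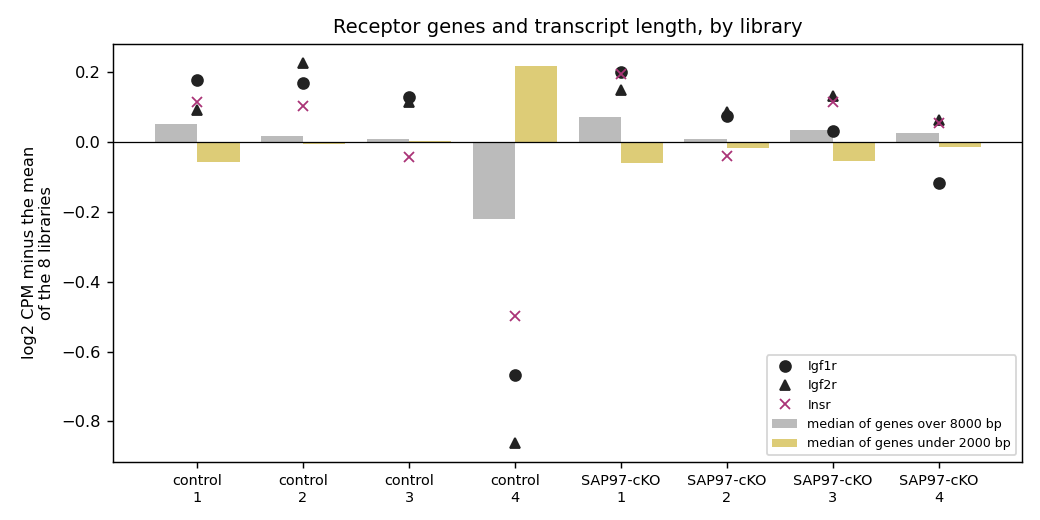
Log2 CPM minus the mean of the 8 libraries for Igf1r, Igf2r and Insr (symbols), and the median of that value over genes with more than 8000 or fewer than 2000 bases of exon (bars), in each library. In control 4 the long-gene bar is at -0.22, the short-gene bar at 0.22, and the 3 receptor genes lie at -0.50 to -0.86.

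Among the remaining binding proteins, Igfbp7 came nearest to a difference. Igfbp7 (ENSMUSG00000036256, chromosome 5, 77349240 to 77408041, minus strand), a protein of vessel walls that binds IGFs weakly, had 623, 897, 704 and 631 normalized counts in the controls and 663, 556, 550 and 336 in the SAP97-cKO libraries. SAP97-cKO 2, 3 and 4 lay below every control, while SAP97-cKO 1 lay above controls 1 and 4. The mean was 714 ± 127 (SD, n = 4) in the controls and 527 ± 137 (SD, n = 4) in the SAP97-cKO libraries. The estimate was -0.44 (SE 0.19, 95% interval -0.87 to -0.01), with an unadjusted p of 0.0449 and an FDR of 0.416 in edgeR, and the exact two-sided permutation p was 0.0857. Without SAP97-cKO 4, the lowest library, it was -0.27 (SE 0.14, edgeR FDR = 0.714).

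Summed vessel markers were lowest in the same library as Igfbp7. The 14 markers of mural cells, which wrap vessels, summed to 260 to 284 CPM in the controls and 170 to 265 CPM in the SAP97-cKO libraries, and the 15 endothelial markers to 361 to 402 CPM and 283 to 433 CPM. Both sums reached their lowest value in SAP97-cKO 4. That library was also the lowest for Igf2, Igfbp2, Igfbp5 and Igfbp6 and for the choroid plexus, oligodendrocyte and ependymal sums. It was the highest of all libraries for the hippocampal neuron sum, at 13150 CPM. Of the mural markers 13 of 14 had estimates below 0, 4 of them at an unadjusted p under 0.05. The remaining marker, Cspg4 (the NG2 proteoglycan, also known from oligodendrocyte precursors), was at 0.28 with an unadjusted p of 0.0123 in edgeR, did not overlap between groups and was highest in SAP97-cKO 4, and it is named after its values were seen. Of the most abundant mural markers, Vtn (vitronectin) was at -0.60 (SE 0.15) while Rgs5 was at -0.22 (SE 0.13) and Pdgfrb at -0.01 (SE 0.10). All 15 endothelial markers had estimates below 0, 0 of them at an unadjusted p under 0.05, with Flt1 at -0.00 (SE 0.17), Slc16a1 at -0.15 (SE 0.08) and Slco1a4 at -0.17 (SE 0.15). Per CPM of the mural sum, Igfbp7 ranged 1.70-fold over the 8 libraries, against 2.67-fold by itself. It ranged 1.94-fold per CPM of the endothelial sum, 2.26-fold of the meningeal sum and 26.25-fold of the choroid plexus sum. The sums themselves spanned 1.66-fold (mural), 1.53-fold (endothelial), 2.71-fold (meningeal) and 65.1-fold (choroid plexus). The spans of the ratios thus depend on the denominators and do not show which tissue Igfbp7 follows. The groups overlapped in each of these ratios. Igfbp7 stood at the same rank as the mural sum in 2 of 8 libraries, as the endothelial sum in 1 and as the choroid plexus sum in 4. The part of vessel content in the Igfbp7 value was not tested.

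The genes most like Igfbp7 over the 8 libraries were Ifih1 (0.07), a sensor of viral RNA, Mtm1 (0.07), a phosphoinositide phosphatase, and Bcam (0.09), a laminin-binding adhesion molecule, against a median of 0.42. The 3′ end of Igfbp7 shares exon bases with Polr2b on the opposite strand, a gene with 2610 to 2985 reads per library, and reads in the shared bases cannot be assigned without strand.

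Igfbp6, a binding protein that prefers IGF2, was the other variable member. It had 291, 501, 274 and 572 normalized counts in the controls and 335, 481, 292 and 268 in the SAP97-cKO libraries. Both groups held high and low libraries, with control 4, control 2 and SAP97-cKO 2 at the top. The estimate was -0.25 (SE 0.26, 95% interval -0.84 to 0.33, edgeR FDR = 0.699), and -0.05 without control 4 (SE 0.26, edgeR FDR = 0.959). In control 4, where the median of genes under 2000 bases was at 0.22, Igfbp6 (1112 bases of exon) was at 0.66. Igfbp2 (1847 bases) and Igfbp7 (1209 bases) were at -0.50 and 0.07 there. The part of transcript length in these values was not tested. Nearest to its profile were AW495222 (0.16), Cst6 (0.16), a cystatin, and Cav2 (0.16), a caveolin, against a median of 0.45.

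Igfbp5, Igfbp4 and Igfbp3 had estimates near 0, with intervals that held changes in either direction. Igfbp5, the most abundant member, had 8328, 10470, 8003 and 8898 normalized counts in the controls and 10107, 7705, 8783 and 7452 in the SAP97-cKO libraries, with an estimate of -0.07 (SE 0.11, 95% interval -0.32 to 0.19, edgeR FDR = 0.822). It is the neighbour of Igfbp2 on chromosome 1, with 5457 bases between the 2 convergent genes, yet its 8 values spanned 1.41-fold where those of Igfbp2 spanned 4.48-fold. Igfbp4, which inhibits IGF action until it is cleaved by the protease PAPP-A, had 3042, 3052, 2676 and 2908 against 3391, 2169, 3014 and 3144. Its estimate was 0.00 (SE 0.12, 95% interval -0.26 to 0.27, edgeR FDR = 0.991). Igfbp3, the main carrier of IGFs in blood, had 818, 590, 573 and 753 against 488, 704, 700 and 808. Its estimate was -0.02 (SE 0.16, 95% interval -0.38 to 0.35, edgeR FDR = 0.972). In Igfbp4 and Igfbp3 alike, the lowest library was a SAP97-cKO library and the groups lay over one another.

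**Figure D4:**
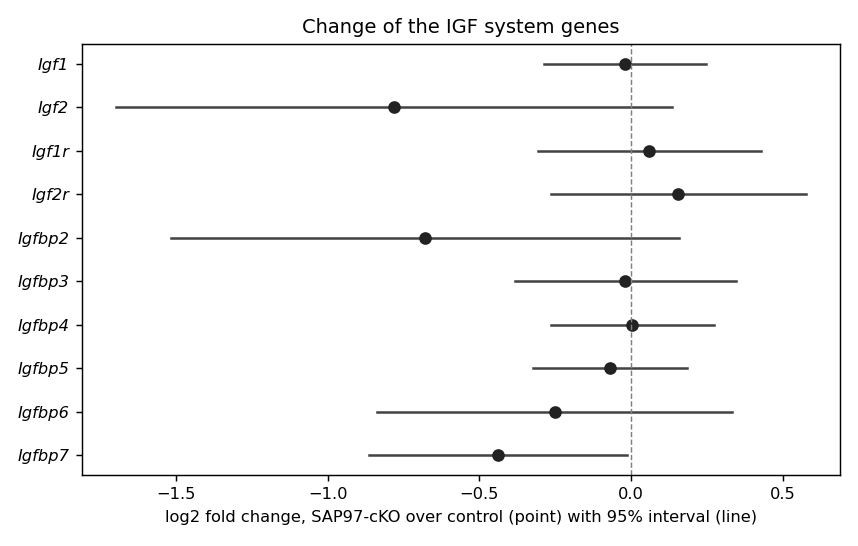
Log2 fold change of each of the 10 genes, SAP97-cKO over control (points), with the 95% interval of the edgeR estimate (lines, 4 libraries per group). The intervals of Igf2 and Igfbp2 are the widest, and that of Igfbp7, -0.87 to -0.01, is the only interval that does not cross 0 before adjustment for the number of genes tested.

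Levels were compared between genes as CPM per kilobase of exon. Over the 8 libraries Igfbp5 averaged 38.8, Igfbp2 27.4, Igf2 22.1, Igfbp4 17.7, Igfbp7 13.7, Igfbp6 9.05, Igfbp3 5.80, Igf2r 4.35, Igf1r 3.93 and Igf1 0.986 CPM per kilobase. The ranges of each gene and the next overlapped at every step except the last, where every Igf1r value (2.44 to 4.44) lay above every Igf1 value (0.83 to 1.15). Igf2 lay above Igfbp4 in 4 of 8 libraries, so these neighbours had no fixed order. Igfbp2 lay above Igf2 in 8 of 8 libraries although their ranges overlapped.

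Of 41 other genes of the IGF pathway, 35 passed the filter on low counts. At FDR under 0.25, 0 were lower and 0 higher in edgeR, and at an unadjusted p under 0.05, 1 was lower and 3 were higher, where 7.01% and 4.73% of all genes tested were, so these counts are near the background. Estimates were below 0 for 12 and above 0 for 23, where 52.75% of all genes tested were below 0. The median was 0.04 against -0.01 for all genes tested. The 6 genes that did not pass were Igfbp1, Igfals, Igf2bp1, H19, Ins2 and Hmga2, with 7 to 70 reads over the 8 libraries.

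The 4 pathway genes with the smallest unadjusted p act below the receptor. Shc1, an adaptor that links receptors to Ras, had 338, 325, 302 and 345 normalized counts in the controls and 292, 290, 285 and 208 in the SAP97-cKO libraries. It was the single pathway gene of 35 whose groups did not overlap, against 6.25% of all genes tested, with an estimate of -0.29 (SE 0.13, edgeR FDR = 0.418). Pik3r2, a regulatory subunit of PI3K, had 3331, 3140, 3131 and 3017 against 3361, 3266, 3818 and 4073, with an estimate of 0.20 (SE 0.08, edgeR FDR = 0.388).
Tsc1 and Tsc2 encode the complex that restrains mTOR. Tsc1 ranged from 2142 to 2608 normalized counts in the controls and from 2565 to 2828 in the SAP97-cKO libraries, with an estimate of 0.17 (SE 0.07, edgeR FDR = 0.421). Tsc2 ranged from 3282 to 4159 and from 3811 to 4586, with an estimate of 0.19 (SE 0.09, edgeR FDR = 0.423). Control 4 held the lowest control value of Tsc1, Tsc2 and Pik3r2, as it did for the receptors.

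The most abundant pathway genes per length were Htra1, a protease that cleaves IGF-binding proteins, at 64.9 CPM per kilobase and the adaptor Grb2 at 57.4. Their groups overlapped, with estimates of -0.06 (SE 0.11) for Htra1 and 0.04 (SE 0.06) for Grb2. Insr ranged with Igf1r at 4.08 CPM per kilobase and had an estimate of 0.14 (SE 0.12, edgeR FDR = 0.639). Pappa, which encodes PAPP-A, had 0.149 CPM per kilobase and an estimate of 0.02 (SE 0.27, edgeR FDR = 0.980).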

How the data were processed

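Hippocampal RNA was sequenced from male mice, 4 control and 4 SAP97-cKO, with 1 library each. The authors aligned reads with STAR 2.5.3a to mm10 (GRCm38.p5, also in the submitters' processing notes), removed ribosomal and mitochondrial reads and resampled each library to a common depth with their PORT pipeline, so the near-equal totals are not the original depth. The deposited counts are whole reads per Ensembl gene. The sources name no strand setting for it. Further deposited columns hold the authors' limma-voom results (a log2 fold change with its p-value and its q-value) and were not used.

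Counts were tested with edgeR 4.0.16 (TMM factors 0.964 to 1.03, filterByExpr by group with a minimum count of 10, quasi-likelihood, FDR under 0.25, 16251 genes) in R 4.3.3, after a check on simulated counts. Alternatives were limma 3.58.1 (voom), DESeq2 1.42.0, other scalings and filters, a replicate block and leaving out each library. Single genes were also tested by an exact two-sided permutation test of log2(normalized count + 0.5). Exon lengths came from GENCODE M21, which matched 25696 of the 25834 gene IDs.

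The members and lists were chosen with earlier results of these data known. Named were all members, the 4 other pathway genes of smallest unadjusted p and the 3 highest per length (of which 1 is not reported here), the 3 genes nearest to each member that spanned over 2-fold, Dlg1, the 3 most abundant genes of the marker lists discussed, and overlapping genes. Insr and Pappa were named in addition, after their values were seen.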

Additional observations from a re-analysis of the deposited data

Results flagged for a closer look

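In 48 groups of 4 libraries, 5 had a single library far from the other 3 by Dixon's test, which chance gives in about 1 in 20 groups. Igf1r was at 1530 normalized counts in control 4, against 2656 to 2747 in the other controls. Igf2r was at 815 in control 4, against 1579 to 1735 in the other controls. The summed microglial markers were at 636 CPM in control 4, against 481 to 495 CPM in the other controls. Shc1 was at 208 normalized counts in SAP97-cKO 4, against 285 to 292 in the other SAP97-cKO libraries. The summed oligodendrocyte markers were at 8567 CPM in SAP97-cKO 1, against 4734 to 5187 CPM in the other SAP97-cKO libraries.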

How the results depend on the processing

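Igfbp6 and Igfbp7 kept an estimate below 0 under all 16 alternatives, from -0.46 to -0.05 and from -0.56 to -0.25, and Igf2 and Igfbp2 under all planned ones. Without controls 2 and 3, an alternative chosen after seeing the data, Igf2 was at 0.067, Igfbp2 at 0.15 and Igfbp4 at -0.015, and 0 members and 0 other pathway genes were lower and 1 pathway gene higher at unadjusted p under 0.05, with 0 genes of the whole table lower and 0 higher at FDR under 0.25.

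Replicate numbers were fitted as a block although they share only a number: deviations of same-numbered libraries correlated at -0.062, 0.201, 0.090 and 0.259 for replicates 1 to 4, with 3 of 4 numbers matching best with their own, a hint from the data and not the design. With the replicate block, 2 members were lower at FDR under 0.25 (Igf2 at -0.69, FDR = 0.167, and Igfbp2 at -0.58, FDR = 0.141), 3 members were lower at unadjusted p under 0.05, 0 pathway genes were lower and 0 higher, Igfbp4 was at -0.012, and 234 genes of the whole table were lower and 22 higher.

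With all libraries, members lower at unadjusted p under 0.05 numbered 1, and 2 with no filter. Pathway genes lower numbered 2 with no scaling and 0 with no filter, and those higher 0 with no scaling. Of all genes at FDR under 0.25, 46 were lower and 2 higher, against 588 and 445 with DESeq2, 94 and 1 with no scaling and 89 and 15 with no filter. Igfbp4 was at -0.013 with limma-voom and -0.043 with no scaling. The cause of these differences was not tested.

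Leaving out each library in turn gave 0 to 3 members lower and 0 higher at unadjusted p under 0.05, 0 to 2 pathway genes lower and 0 to 4 higher, and 0 to 1 pathway gene higher at FDR under 0.25. It gave 0 to 960 genes of the whole table lower and 0 to 715 higher, with 960 and 715 without control 1. Estimates ranged from -0.075 to 0.060 for Igf1, -0.11 to 0.13 for Igf1r, -0.037 to 0.26 for Igf2r, -0.11 to 0.11 for Igfbp3, -0.066 to 0.12 for Igfbp4 and -0.15 to 0.018 for Igfbp5.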
